A study of Mus musculus with 4 samples.

Results

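The genes described here encode the contraction machinery of striated muscle: the proteins of the sarcomere, the channels, pumps and receptors that couple a nerve impulse to contraction, and muscle creatine kinase. They were taken as a list of 51 symbols, each matched to 1 Ensembl gene ID through the GENCODE annotation of GRCm38, and all 51 were found among the 55487 IDs counted. They were measured by sequencing poly(A) RNA of mouse embryonic calvaria, the roof of the skull, at stage E14.5. There were 2 frontal bone libraries and 2 libraries in which the parietal and interparietal bones were combined. The labels state no strain, sex, litter, treatment or number of embryos for either group, and name no separate embryos behind the libraries of a group, so each p-value reflects only how far these samples vary, and that variation may be technical. Frontal bone is largely a derivative of the cranial neural crest, parietal bone largely one of head mesoderm. This division leaves out the interparietal bone, which the second group also holds. The dissected bones of such embryos can carry overlying skin, muscle and connective tissue and underlying brain coverings.

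A sarcomere is built of myosin thick filaments that pull on actin thin filaments anchored at the Z disc, with titin spanning between Z disc and M band. At the nerve-muscle contact the acetylcholine receptor depolarizes the fibre, a voltage sensor in the membrane opens the ryanodine receptor, and the released calcium binds troponin and frees actin for myosin. Muscle fibres switch between embryonic, neonatal, slow and fast isoforms of these proteins as they mature, and embryonic skeletal muscle also uses isoforms that adult mice keep mainly in the heart. Head muscles arise largely from cranial mesoderm, and they share many contractile genes with trunk muscle.

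Promoter sequences of 7 members are shown because several contractile genes moved together and because the CArG box, the binding motif of serum response factor, and the MEF2 site are classical elements of muscle promoters. RefSeq promoters of GRCm38.p6 were at hand for 41 of the 51 members, and the 200 bases before the annotated start were searched on both strands. The first 5 sequences are all the members with a CArG box, and Myh8 and Tnni1 were added, after their values had been seen, as a member with a MEF2 site and a member with the E-box CAGCTG, a motif of myogenic factors. Capitals mark the motif. The windows are chr8:123894776-123894975, minus strand for Acta1, chr2:114052876-114053075, minus strand for Actc1, chr9:110763478-110763677, plus strand for Myl3, chr14:34588682-34588881, minus strand for Ldb3, chr17:71019357-71019556, plus strand for Myom1, chr11:67276924-67277123, plus strand for Myh8 and chr1:135799221-135799420, plus strand for Tnni1.
Acta1: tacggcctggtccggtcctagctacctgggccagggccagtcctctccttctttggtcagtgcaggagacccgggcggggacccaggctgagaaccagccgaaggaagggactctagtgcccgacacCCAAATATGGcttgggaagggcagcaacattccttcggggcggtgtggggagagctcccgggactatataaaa
Actc1: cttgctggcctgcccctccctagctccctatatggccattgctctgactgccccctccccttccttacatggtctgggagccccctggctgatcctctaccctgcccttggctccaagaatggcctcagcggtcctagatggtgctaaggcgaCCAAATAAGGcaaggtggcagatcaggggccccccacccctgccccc
Myl3: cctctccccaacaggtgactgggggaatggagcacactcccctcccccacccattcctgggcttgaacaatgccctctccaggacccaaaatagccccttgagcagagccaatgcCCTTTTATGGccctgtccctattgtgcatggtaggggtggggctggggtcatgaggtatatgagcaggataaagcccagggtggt
Ldb3: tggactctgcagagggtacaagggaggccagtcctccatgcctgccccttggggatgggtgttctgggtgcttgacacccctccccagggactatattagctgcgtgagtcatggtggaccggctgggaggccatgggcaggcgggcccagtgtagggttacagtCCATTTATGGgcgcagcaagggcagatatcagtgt
Myom1: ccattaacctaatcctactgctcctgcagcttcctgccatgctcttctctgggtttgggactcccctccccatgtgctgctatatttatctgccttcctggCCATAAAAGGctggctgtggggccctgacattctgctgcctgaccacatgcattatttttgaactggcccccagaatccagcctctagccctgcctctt
Myh8: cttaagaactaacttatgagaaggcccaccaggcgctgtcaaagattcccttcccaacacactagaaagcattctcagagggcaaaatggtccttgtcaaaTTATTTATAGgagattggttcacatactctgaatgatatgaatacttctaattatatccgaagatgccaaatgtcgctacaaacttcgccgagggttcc
Tnni1: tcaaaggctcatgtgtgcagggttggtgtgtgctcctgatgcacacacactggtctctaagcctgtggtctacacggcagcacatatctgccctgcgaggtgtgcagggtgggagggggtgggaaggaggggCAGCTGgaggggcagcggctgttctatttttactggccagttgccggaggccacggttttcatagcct
The CArG box lay 73 to 64 bases before the annotated start in Acta1, 47 to 38 bases in Actc1, 85 to 76 bases in Myl3, 35 to 26 bases in Ldb3 and 99 to 90 bases in Myom1. A CArG box was found in 5 of 41 members (12.2%) and in 358 of 27025 genes with a RefSeq promoter (1.32%). A MEF2 site was found in 5 of 41 members (12.2%), against 726 of 27025 genes (2.69%). The E-box CAGCTG was found in 13 of 41 members (31.7%), against 3341 of 27025 genes (12.4%). A match describes letters in a window and is not evidence of a bound site.

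Contraction genes were lower in the frontal libraries. Of the 51 members 49 passed the filter on low counts, and 27 of these were lower in frontal than in parietal-interparietal libraries, 0 were higher and 22 were not called (edgeR quasi-likelihood test, Benjamini-Hochberg adjusted p under 0.05). Over all 20947 genes tested 6.44% were called lower and 6.25% higher, and among genes with a mean of at least 1 count-per-million (CPM) 7.88% were called lower. DESeq2 also called 27 members lower and 0 higher. The median log2 fold change of the 49 members was −0.51, against 0.01 over all genes tested, and the log2 fold changes of the 27 called members ran from −1.79 to −0.31, which is 3.46-fold to 1.24-fold lower. Both frontal libraries lay below both parietal-interparietal libraries in 44 of the 49 members, among them all 27 called members and 17 of those not called, where 28.4% of all genes tested showed this order. In the other 5 members, Tnni1, Neb, Mybph, Actn3 and Chrnd, the groups overlapped. In bulk samples fewer muscle cells and less of these RNAs per muscle cell cannot be told apart.

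The number of members called lower changed with the libraries used. It was 38 without frontal library 1 and 31 without frontal library 2, fits in which the spread comes from the parietal-interparietal pair alone. The share of all genes tested that was called lower moved in the same direction, to 12.2% without frontal library 1 and 17.0% without frontal library 2, against 6.44% with all libraries. It was 8 without parietal-interparietal library 1, 10 without parietal-interparietal library 2 and 9 when these 2 libraries were summed into 1, fits in which the spread comes from the frontal pair alone. In these 3 settings 2.03%, 1.96% and 1.76% of all genes tested were called lower. Myh3, Myh7, Myl3, Actc1, Tnnt2, Tnni2, Myom2 and Ldb3 were called lower under every one of the 11 alternatives. The other 19 called members lost the call in at least 1 of these 3 settings, 17 of them in all 3.

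**Figure D1:**
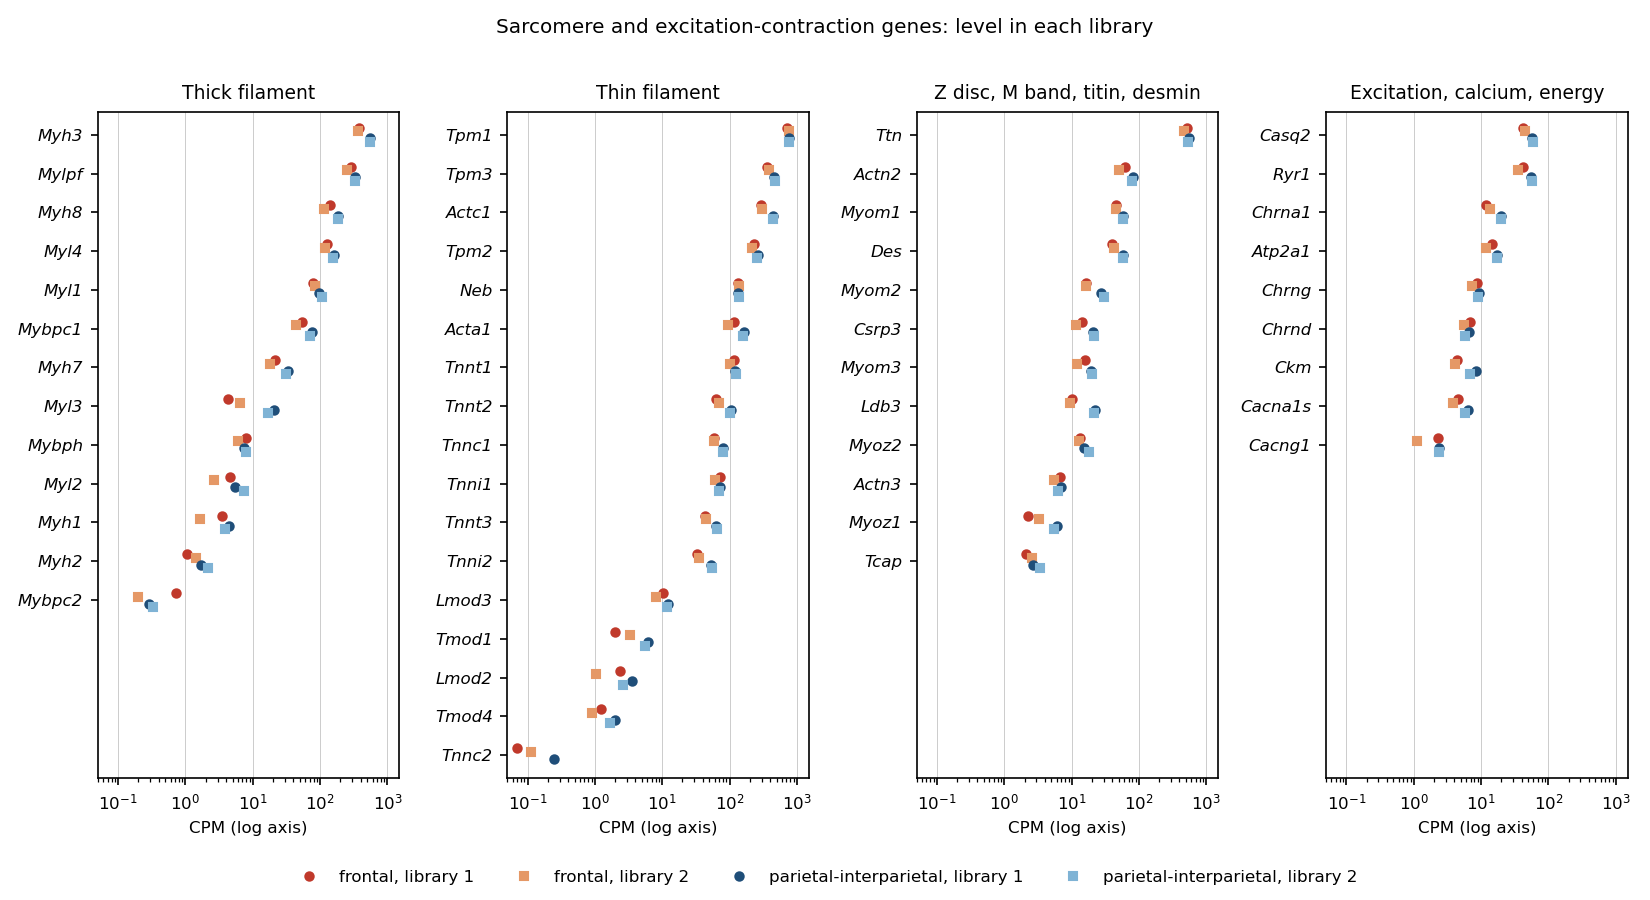
Level of each member in CPM (log axis) in the 2 frontal libraries (red and orange) and the 2 parietal-interparietal libraries (dark and light blue), by role and sorted by mean level; each point is 1 library. Most blue points lie to the right of the red and orange points, as for Myl3 at 4.31 and 6.45 CPM in frontal against 20.9 and 16.7 CPM in parietal-interparietal libraries; Tnnc2 had no count in parietal-interparietal library 2 and has no point there.

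Myosin heavy chains, the motors of the thick filament, were mostly of developmental type. Myh3, the embryonic heavy chain (ENSMUSG00000020908, chromosome 11, 67078300 to 67102291, GRCm38), was at 380 and 367 CPM in the 2 frontal libraries against 546 and 555 CPM in the 2 parietal-interparietal libraries. Both frontal values lay below both others, and Myh3 was 1.47-fold lower (log2 fold change −0.56 ± 0.07 SE, n = 2 each, edgeR adjusted p = 0.000812). Myh8, the neonatal or perinatal heavy chain (chromosome 11, 67277124 to 67308634), was at 139 and 114 CPM in frontal against 183 and 184 CPM in parietal-interparietal libraries. The frontal libraries differed more from each other than the parietal-interparietal libraries did, and Myh8 was 1.44-fold lower (−0.53 ± 0.10, edgeR adjusted p = 0.00711). Myh7, the slow fibre and cardiac ventricle heavy chain on chromosome 14, was at 21.3 and 18.1 CPM in frontal against 33.0 and 31.5 CPM in parietal-interparietal libraries (−0.71 ± 0.12, edgeR adjusted p = 0.00472).

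The adult fast heavy chains were scarce. Myh1, the chain of type IIx fibres, was at 3.51 and 1.65 CPM in frontal and 4.50 and 3.87 CPM in parietal-interparietal libraries (edgeR adjusted p = 0.247). Myh2, the chain of type IIa fibres, was at 1.04 and 1.45 CPM in frontal against 1.68 and 2.17 CPM in parietal-interparietal libraries (edgeR adjusted p = 0.383). Both were below in frontal libraries without reaching the threshold.

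Divided by the length of the principal transcript, Myh3 made up 70.1% and 73.4% of the 5 heavy chains in frontal libraries and 71.5% and 71.9% in parietal-interparietal libraries. Myh8 followed with 25.2% and 22.4% in frontal against 23.5% and 23.4% in parietal-interparietal libraries, and Myh7 with 3.81% and 3.50% in frontal against 4.19% and 3.95% in parietal-interparietal libraries. Myh1 and Myh2 together stayed under 1% in each library. The order of the 5 chains was Myh3, Myh8, Myh7, Myh1 and Myh2 in all 4 libraries, and the share of Myh3 in frontal libraries lay on both sides of that in the parietal-interparietal libraries. With the length of all annotated exons in place of the principal transcript, the share of Myh3 was 80.7% and 83.2% in frontal and 81.6% and 82.0% in parietal-interparietal libraries. Myh1, Myh2, Myh3 and Myh8 lie in 1 cluster on chromosome 11 and resemble each other: 32.1% of the 50-base windows of Myh1, 28.9% of Myh2, 21.4% of Myh8 and 4.81% of Myh3 also occur in transcripts of other genes, so the values of Myh1, Myh2 and Myh8 are uncertain. For Myh7 this share was 28.2%, mostly shared with its neighbour Myh6.

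Light chains, which stabilize the myosin lever arm, held the largest difference of the list. Myl3, the essential light chain of slow fibres and cardiac ventricle (ENSMUSG00000059741, chromosome 9, 110741861 to 110769798), was at 4.31 and 6.45 CPM in frontal and 20.9 and 16.7 CPM in parietal-interparietal libraries. The groups stood well apart, with a 3.46-fold lower level in frontal libraries (log2 fold change −1.79 ± 0.21, edgeR adjusted p = 0.000547). Its regulatory counterpart Myl2, of the same fibre types, was at 4.66 and 2.61 CPM in frontal against 5.40 and 7.48 CPM in parietal-interparietal libraries (−0.84 ± 0.31, edgeR adjusted p = 0.106). Myl2 was called lower without the filter on low counts, without frontal library 1 and with the replicate number as a block.

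The light chains of embryonic and fast muscle were also lower. Mylpf, the regulatory light chain of fast fibres, was at 286 and 251 CPM in frontal against 334 and 331 CPM in parietal-interparietal libraries (1.24-fold lower, edgeR adjusted p = 0.0353). Myl4, the essential light chain of embryonic muscle and atrium, was at 127 and 117 CPM in frontal against 159 and 157 CPM in parietal-interparietal libraries (1.30-fold lower, edgeR adjusted p = 0.0148). Myl1, the fast essential light chain, was at 77.7 and 82.9 CPM in frontal against 97.6 and 107 CPM in parietal-interparietal libraries (1.27-fold lower, edgeR adjusted p = 0.0291). The groups overlapped in none of these 3, and all 3 lost the call when either parietal-interparietal library was left out or the pair was summed. The value of Myl1 is uncertain, since 32.1% of its 50-base windows also occur in the annotated transcript of Mylf-ps.

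The myosin-binding proteins, which tie the thick filament together, comprised 1 called member, 1 not called and 1 not tested. Mybpc1, the slow form, was at 54.5 and 43.7 CPM in frontal and 75.9 and 71.0 CPM in parietal-interparietal libraries (1.50-fold lower, edgeR adjusted p = 0.00909). Mybph was at 8.0 and 6.08 CPM in frontal against 7.41 and 7.81 CPM in parietal-interparietal libraries, with overlapping groups (edgeR adjusted p = 0.772), and 49.9% of its exon bases overlap exons of Adora1 on the opposite strand. Mybpc2, the fast form, had 21 and 7 counts in frontal against 7 and 9 counts in parietal-interparietal libraries and did not pass the filter. In all, 8 of 12 tested thick filament members were lower and 0 higher, with a median of −0.57 log2 units. Among all genes tested 6.44% were called lower and 6.25% higher.

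Actins form the thin filament. Actc1, the cardiac alpha-actin that embryonic skeletal muscle also makes (ENSMUSG00000068614, chromosome 2, 114047282 to 114053548), was at 295 and 308 CPM in frontal and 439 and 441 CPM in parietal-interparietal libraries. It was 1.46-fold lower, a difference many times the spread within either pair (log2 fold change −0.54 ± 0.07, edgeR adjusted p = 0.00104). Acta1, the skeletal alpha-actin (chromosome 8, 123891769 to 123894751), was at 117 and 94.3 CPM in frontal against 163 and 156 CPM in parietal-interparietal libraries (1.51-fold lower, edgeR adjusted p = 0.00552), and lost the call without parietal-interparietal library 1.

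Troponins, the calcium switch of the thin filament, were measured as slow, fast and cardiac isoforms. Tnni2, the fast inhibitory subunit (chromosome 7, 142441808 to 142444410), was at 32.3 and 34.9 CPM in frontal and 52.8 and 54.6 CPM in parietal-interparietal libraries, 1.60-fold lower (log2 fold change −0.68 ± 0.10, edgeR adjusted p = 0.00178). Tnni1, the slow inhibitory subunit (chromosome 1, 135779434 to 135810989), was at 71.1 and 60.3 CPM in frontal against 72.8 and 70.7 CPM in parietal-interparietal libraries, with overlapping groups (−0.13 ± 0.10, edgeR adjusted p = 0.466). Its log2 fold change depended on the frontal library used, at −0.25 without frontal library 1 and −0.02 without frontal library 2. Without frontal library 1 Tnni1 was called lower. The slow form in frontal library 1 lay between both parietal-interparietal values, while both frontal values of the fast form lay below them.

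Among the tropomyosin-binding subunits the fast and cardiac forms were lower and the slow form was not called. Tnnt3, the fast form (chromosome 7, 142498836 to 142516009), was at 43.2 and 44.1 CPM in frontal and 63.4 and 64.3 CPM in parietal-interparietal libraries (1.46-fold lower, edgeR adjusted p = 0.00374). Tnnt2, the cardiac form that embryonic skeletal muscle also makes (chromosome 1, 135836354 to 135852260), was at 63.0 and 68.6 CPM in frontal against 105 and 102 CPM in parietal-interparietal libraries (1.57-fold lower, edgeR adjusted p = 0.0012). Tnnt1, the slow form, was at 116 and 101 CPM in frontal against 122 and 127 CPM in parietal-interparietal libraries (−0.20 ± 0.09, edgeR adjusted p = 0.201). The log2 fold change of Tnnt1 was −0.30 without frontal library 1, where it was called lower, and −0.11 without frontal library 2. Tnnt3 lost the call when either parietal-interparietal library was left out or the pair was summed. Tnni2 and Tnnt3 are neighbours on chromosome 7 and both were lower, whereas of the neighbours Tnni1 and Tnnt2 on chromosome 1 Tnnt2 was lower and Tnni1 was not called.

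Tnnc1, the calcium-binding subunit of slow and cardiac muscle, was at 59.3 and 59.2 CPM in frontal and 80.7 and 80.0 CPM in parietal-interparietal libraries (1.36-fold lower, edgeR adjusted p = 0.00891). Its fast counterpart Tnnc2 had 2 and 4 counts in frontal against 6 and 0 counts in parietal-interparietal libraries and was not tested. Exons of Ube2c on the opposite strand cover 74.0% of the exon bases of Tnnc2, and the sources used here do not give the strand setting of the counting, so its value is uncertain.

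Tropomyosins lie along actin and are also made outside muscle. Tpm1 was at 720 and 765 CPM in frontal and 771 and 770 CPM in parietal-interparietal libraries (log2 change −0.05 ± 0.07, edgeR adjusted p = 0.675). Tpm2 was at 230 and 216 CPM in frontal against 267 and 256 CPM in parietal-interparietal libraries (−0.23 ± 0.08, edgeR adjusted p = 0.0762), and was called lower without either frontal library and with total counts in place of TMM scaling. Tpm3 was at 365 and 386 CPM in frontal against 462 and 468 CPM in parietal-interparietal libraries (−0.31 ± 0.07, edgeR adjusted p = 0.0189), and 62.4% of its 50-base windows also occur in other transcripts, mainly of its copy Tpm3-rs7.

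Nebulin and the proteins of the filament ends completed the thin filament. Neb, the giant ruler of the thin filament, was at 135 and 140 CPM in frontal and 133 and 136 CPM in parietal-interparietal libraries. The groups overlapped (log2 fold change 0.03 ± 0.08, edgeR adjusted p = 0.854), and the sign turned with total counts in place of TMM scaling and without frontal library 2. Tmod1, a cap of the pointed end that red cells and neurons also use, was at 2.02 and 3.38 CPM in frontal against 6.18 and 5.60 CPM in parietal-interparietal libraries (2.17-fold lower, edgeR adjusted p = 0.0321), and 32.6% of its exon bases overlap exons of Tstd2 on the opposite strand. Lmod3 was at 10.4 and 8.04 CPM in frontal against 12.0 and 11.8 CPM in parietal-interparietal libraries, Lmod2 was at 2.36 and 1.02 CPM in frontal against 3.52 and 2.65 CPM in parietal-interparietal libraries, and Tmod4 was at 1.22 and 0.909 CPM in frontal against 2.0 and 1.70 CPM in parietal-interparietal libraries. The muscle-specific cap Tmod4 and the nucleators Lmod2 and Lmod3 had log2 fold changes of −0.80, −0.88 and −0.38 and were not called, with edgeR adjusted p-values of 0.272, 0.221 and 0.194. In all, 8 of 16 tested thin filament members were lower and 0 higher, with a median of −0.49 log2 units. The shares over all genes tested were 6.44% lower and 6.25% higher.

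**Figure D2:**
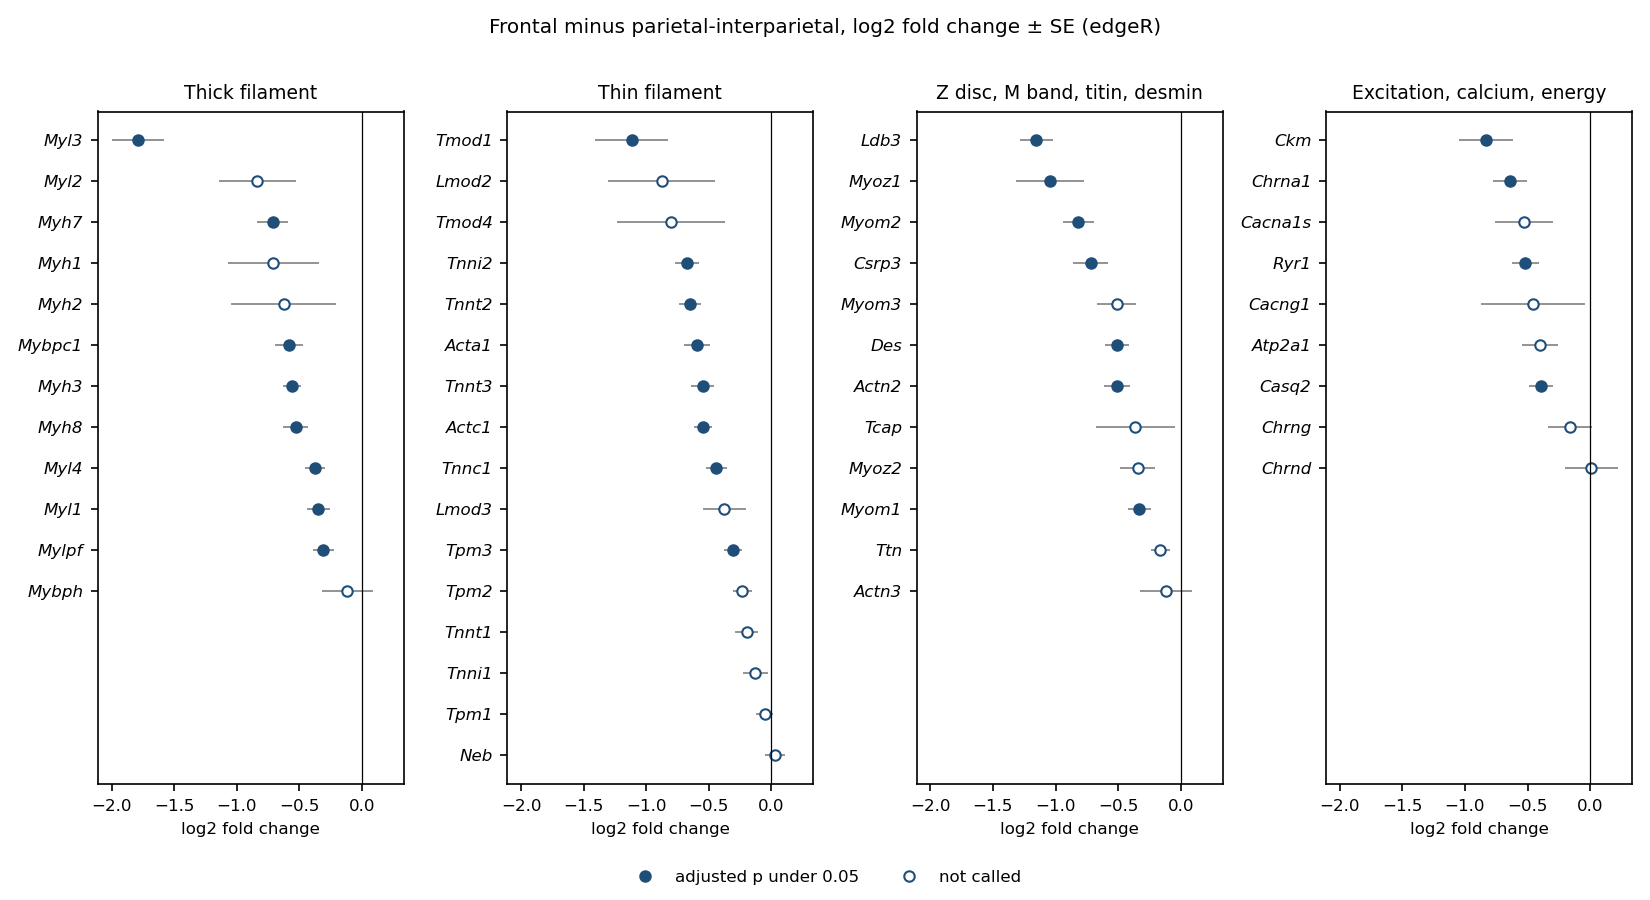
Log2 fold change of each of the 49 tested members, frontal minus parietal-interparietal, with its standard error (edgeR, 2 libraries per group); filled points have an adjusted p under 0.05. The filled points run from −1.79 for Myl3 to −0.31 for Mylpf and Tpm3, and Tpm1, Neb and Chrnd lie at −0.05, 0.03 and 0.01.

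At the Z disc, where thin filaments of neighbouring sarcomeres meet, Ldb3 differed most. Ldb3, the Z-disc protein cypher (ENSMUSG00000021798, chromosome 14, 34526603 to 34588682), was at 10.01 and 9.60 CPM in frontal and 22.0 and 21.7 CPM in parietal-interparietal libraries. The libraries of each group nearly coincided, and Ldb3 was 2.23-fold lower (log2 fold change −1.16 ± 0.13, edgeR adjusted p = 0.000545). Actn2, the alpha-actinin that crosslinks actin there, was at 61.2 and 51.4 CPM in frontal against 82.2 and 77.6 CPM in parietal-interparietal libraries (1.42-fold lower, edgeR adjusted p = 0.0112). The fast-fibre alpha-actinin Actn3 was at 6.64 and 5.54 CPM in frontal against 7.0 and 6.19 CPM in parietal-interparietal libraries, with overlapping groups (edgeR adjusted p = 0.781). Csrp3, the muscle LIM protein, was at 14.2 and 11.7 CPM in frontal against 21.03 and 21.5 CPM in parietal-interparietal libraries (1.65-fold lower, edgeR adjusted p = 0.00858).

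The calsarcins, which tether calcineurin to the Z disc, include a fast and a slow form. Myoz1, the fast-fibre form, was at 2.26 and 3.32 CPM in frontal and 6.06 and 5.53 CPM in parietal-interparietal libraries (2.06-fold lower, edgeR adjusted p = 0.0316). Myoz2, the slow and cardiac form, was at 13.2 and 13.1 CPM in frontal against 15.4 and 17.9 CPM in parietal-interparietal libraries (log2 change −0.34 ± 0.14, edgeR adjusted p = 0.145). Tcap, the titin cap, was at 2.12 and 2.58 CPM in frontal against 2.70 and 3.35 CPM in parietal-interparietal libraries (edgeR adjusted p = 0.517). Des, the intermediate filament that links myofibrils and is also made in smooth muscle, was at 39.6 and 42.3 CPM in frontal against 58.6 and 58.2 CPM in parietal-interparietal libraries (1.42-fold lower, edgeR adjusted p = 0.00657).

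Titin and the M band showed both small and large differences. Ttn, the elastic spring of the sarcomere (chromosome 2, 76703980 to 76982547), was at 512 and 465 CPM in frontal and 563 and 531 CPM in parietal-interparietal libraries (log2 change −0.16 ± 0.08, edgeR adjusted p = 0.204), and was called lower without either frontal library. Myom2, the M-band crosslinker of fast fibres and heart, was at 16.6 and 16.2 CPM in frontal against 27.2 and 30.6 CPM in parietal-interparietal libraries (1.76-fold lower, edgeR adjusted p = 0.00211). Myom1, the general M-band myomesin, was at 46.2 and 45.9 CPM in frontal against 57.3 and 58.4 CPM in parietal-interparietal libraries (1.26-fold lower, edgeR adjusted p = 0.0393). Myom3 was at 15.9 and 12.1 CPM in frontal against 19.6 and 20.2 CPM in parietal-interparietal libraries and just missed the threshold (edgeR adjusted p = 0.0553). It was called lower with total counts in place of TMM scaling, without the filter on low counts and with counts halved. Myom3 was also called lower without either frontal library and with the replicate number as a block. Of the 12 members of the Z disc, M band, titin and desmin group 7 were lower and 0 higher. Their median was −0.51 log2 units. The shares over all genes tested were 6.44% lower and 6.25% higher.

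Among the genes of excitation, Chrna1, the ligand-binding alpha subunit of the muscle acetylcholine receptor, was at 12.0 and 13.7 CPM in frontal and 20.1 and 19.9 CPM in parietal-interparietal libraries (1.56-fold lower, edgeR adjusted p = 0.0125). The other subunits on the list were not called. Chrng, the fetal gamma subunit, was at 8.83 and 7.47 CPM in frontal against 9.25 and 8.92 CPM in parietal-interparietal libraries (log2 change −0.16 ± 0.18, edgeR adjusted p = 0.624). Chrnd, the delta subunit, was at 6.82 and 5.62 CPM in frontal against 6.55 and 5.79 CPM in parietal-interparietal libraries (0.01 ± 0.21, edgeR adjusted p = 0.983), and its sign turned in 3 alternatives. Chrnd and Chrng lie side by side on chromosome 1, at 87190607 to 87200070 and 87204657 to 87212694.

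Of the calcium apparatus, Ryr1, the release channel of the sarcoplasmic reticulum, was at 42.0 and 35.9 CPM in frontal and 55.0 and 56.3 CPM in parietal-interparietal libraries (1.43-fold lower, edgeR adjusted p = 0.0106). Casq2, the calcium store protein of slow and cardiac muscle, was at 42.6 and 45.2 CPM in frontal against 56.8 and 58.5 CPM in parietal-interparietal libraries (1.31-fold lower, edgeR adjusted p = 0.0217). Both were lower with separate groups and lost the call when either parietal-interparietal library was left out or the pair was summed. Cacna1s was at 4.62 and 3.78 CPM in frontal against 6.30 and 5.82 CPM in parietal-interparietal libraries. Cacng1 was at 2.33 and 1.14 CPM in frontal against 2.37 and 2.36 CPM in parietal-interparietal libraries. Atp2a1 was at 14.46 and 11.8 CPM in frontal against 17.3 and 17.3 CPM in parietal-interparietal libraries, and 21.9% of its exon bases overlap exons of Rabep2 on the opposite strand. The voltage sensor Cacna1s, its gamma subunit Cacng1 and the fast-fibre calcium pump Atp2a1 had log2 fold changes of −0.53, −0.46 and −0.40 and were not called, with edgeR adjusted p-values of 0.17, 0.531 and 0.106. Ckm, the muscle creatine kinase that buffers ATP, was at 4.35 and 4.17 CPM in frontal against 8.31 and 6.89 CPM in parietal-interparietal libraries (1.78-fold lower, edgeR adjusted p = 0.0304). Of these 9 members 4 were lower and 0 higher, with a median of −0.46 log2 units. Among all genes tested 6.44% were called lower and 6.25% higher.

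Grouped by isoform instead of role, 9 of 14 slow or cardiac isoforms were lower (median −0.56 log2 units), as were 5 of 9 tested fast isoforms (median −0.55) and 3 of 4 embryonic, neonatal or fetal forms (median −0.45). Of the 7 members that are also known outside striated muscle 5 were lower, with a median of −0.38. None was higher in these classes. Among all genes tested 6.44% were called lower and 6.25% higher.

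Ratios between paired members within a library do not depend on scaling, and 11 such pairs were compared. With 2 libraries against 2 the smallest exact two-sided permutation p is 0.333, or 0.524 adjusted over the 11 pairs, so no pair could reach the threshold. The groups did not overlap in 7 pairs, with the ratio higher in frontal libraries in 4 and lower in 3. Groups without overlap give this p of 0.333, which is also the share of pairs expected to show such an order by chance. Some of the pairs share a member. The log2 ratio of Tnni1 to Tnni2 was 1.14 and 0.79 in frontal and 0.46 and 0.37 in parietal-interparietal libraries, a difference of 0.55. That of Tnnt1 to Tnnt3 was 1.43 and 1.20 in frontal against 0.94 and 0.98 in parietal-interparietal libraries, a difference of 0.35. In both troponins the slow form thus weighed more against the fast form in each frontal library.

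In the essential light chains the ratio lay lower in both frontal libraries. The log2 ratio of Myl3 to Myl1 was −4.17 and −3.68 in frontal and −2.22 and −2.68 in parietal-interparietal libraries, a difference of −1.47. That of Myh7 to Myh8, slow over neonatal, was −2.71 and −2.66 in frontal against −2.47 and −2.54 in parietal-interparietal libraries, a difference of −0.18. The ratio of Myoz2 to Myoz1 was higher in frontal libraries by 0.74 log2 units and that of Chrng to Chrna1 by 0.48, while that of Tnnt2 to Tnnt3 was lower, with a difference of −0.11. The embryonic over neonatal ratio, Myh3 to Myh8, was 1.44 and 1.68 in frontal against 1.58 and 1.60 in parietal-interparietal libraries, with overlapping groups.

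**Figure D3:**
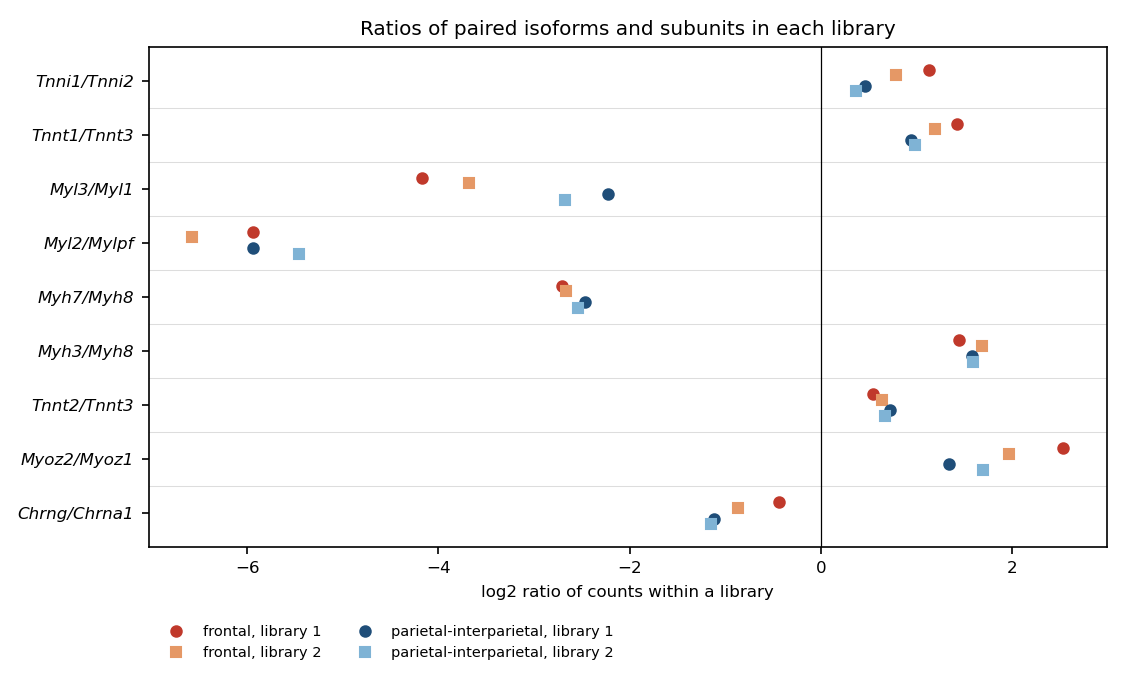
Log2 ratio of the counts of 2 paired members within each library, for 9 of the 11 pairs (the pairs with Tnnc2 and Mybpc2 rest on few counts); each point is 1 library. Frontal points lie to the right for Tnni1/Tnni2 (1.14 and 0.79 in frontal against 0.46 and 0.37 in parietal-interparietal libraries) and to the left for Myl3/Myl1 (−4.17 and −3.68 in frontal against −2.22 and −2.68 in parietal-interparietal libraries).

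Further genes of the same machinery, 65 in number and none of them a member, were counted in the same way. Of 61 tested, 16 were lower, 1 was higher and 44 were not called, where 6.44% of all genes tested were lower and 6.25% higher. The median of this list was −0.39 log2 units. The 4 with the smallest p were Smpx, a small protein of the costamere (11.5 and 10.6 CPM in frontal, against 27.6 and 25.7 CPM in parietal-interparietal libraries), Cryab, a chaperone of desmin and actin (59.2 and 50.2 in frontal against 104 and 103 CPM in parietal-interparietal libraries), Synpo2l, a Z-disc protein (22.2 and 23.3 in frontal against 38.8 and 41.4 CPM in parietal-interparietal libraries), and Flnc, the muscle filamin (131 and 112 in frontal against 189 and 199 CPM in parietal-interparietal libraries). Their log2 fold changes were −1.27, −0.92, −0.82 and −0.68, with edgeR adjusted p-values of 0.000264, 0.000383, 0.00101 and 0.0013, and each was called lower in every alternative. The higher gene was Dmd, which encodes dystrophin and has brain and retina isoforms, at 22.2 and 22.3 CPM in frontal against 15.0 and 15.1 CPM in parietal-interparietal libraries (log2 change 0.56 ± 0.12, edgeR adjusted p = 0.0147). It was named after its value was seen, and its call was lost when either parietal-interparietal library was left out or the pair was summed. The number of lower genes in this list was 28 and 24 without frontal library 1 and 2, 7 and 5 without parietal-interparietal library 1 and 2, and 7 when that pair was summed. The share of all genes called lower moved alike, as given above for each of these settings.

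Total counts ran from 24069177 to 35555013 per library, and 3 counts corresponded to 0.0852 to 0.123 CPM. CT010467.1, a locus with ribosomal RNA sequence, took 9.86% and 8.03% of counts in frontal against 6.07% and 5.97% in parietal-interparietal libraries, and with it and the mitochondrial genes left out 27 members were again called lower. Markers of other tissues moved with the groups, where 6.44% of all genes tested were called lower and 6.25% higher. Bone was present, with 8 osteoblast markers summing to 1139.9 and 1131 CPM in frontal and 1585 and 1593 CPM in parietal-interparietal libraries, mostly Col1a1, and 1 of the 8 lower and 2 higher. Of 8 cortex and neuron markers 7 were higher and 0 lower. Their sum was 481 and 450 CPM in frontal against 179 and 184 CPM in parietal-interparietal libraries. Most of the parietal-interparietal sum was Tubb3, the marker not called. Tubb3 was at 196 and 160 CPM in frontal against 167 and 173 CPM in parietal-interparietal libraries. Eomes, with the smallest p of this list, was at 53.3 and 53.6 CPM in frontal against 0.246 and 0.0737 CPM in parietal-interparietal libraries. Of 8 midbrain and hindbrain markers 4 were lower (16.3 and 18.4 in frontal against 55.0 and 62.2 CPM in parietal-interparietal libraries). Of 8 meninges markers 5 were lower (539 and 635 in frontal against 753 and 765 CPM in parietal-interparietal libraries), and of 8 red cell markers 6 were lower (7050.3 and 7110 in frontal against 8719 and 8717 CPM in parietal-interparietal libraries). The part of these tissues in the muscle differences was not tested.

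Of 12 regulators of skeletal muscle 11 were tested, each with counts in all 4 libraries. Of these 7 were lower and 0 higher, where 6.44% of all genes tested were lower and 6.25% higher. The summed level of the 12 regulators was 271 and 280 CPM in frontal against 384 and 380 CPM in parietal-interparietal libraries, a ratio to the parietal-interparietal mean of 0.709 and 0.733. The summed level of all 51 members was 4249.8 and 4110 CPM in frontal against 5287 and 5257 CPM in parietal-interparietal libraries, a ratio of 0.806 and 0.780, and without the 7 members known outside striated muscle it was 0.779 and 0.728. The 8 cardiac markers summed to 7.68 and 7.13 CPM in frontal against 6.71 and 6.89 CPM in parietal-interparietal libraries, with 0 lower and 0 higher, and Nppa had 0 counts in 3 of the 4 libraries. The 8 smooth muscle markers summed to 240 and 214 CPM in frontal against 249 and 244 CPM in parietal-interparietal libraries, with 1 lower and 0 higher. Of the cardiac markers 4 passed the filter, 1 with a negative and 3 with a positive log2 fold change. Tnni3, the cardiac troponin I, had the smallest p of these and was at 3.41 and 3.29 CPM in frontal against 2.05 and 1.92 CPM in parietal-interparietal libraries (log2 change 0.76 ± 0.31, edgeR adjusted p = 0.144). Myh6, the atrial heavy chain, was at 2.05 and 2.73 CPM in frontal against 3.68 and 3.80 CPM in parietal-interparietal libraries.

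**Figure D4:**
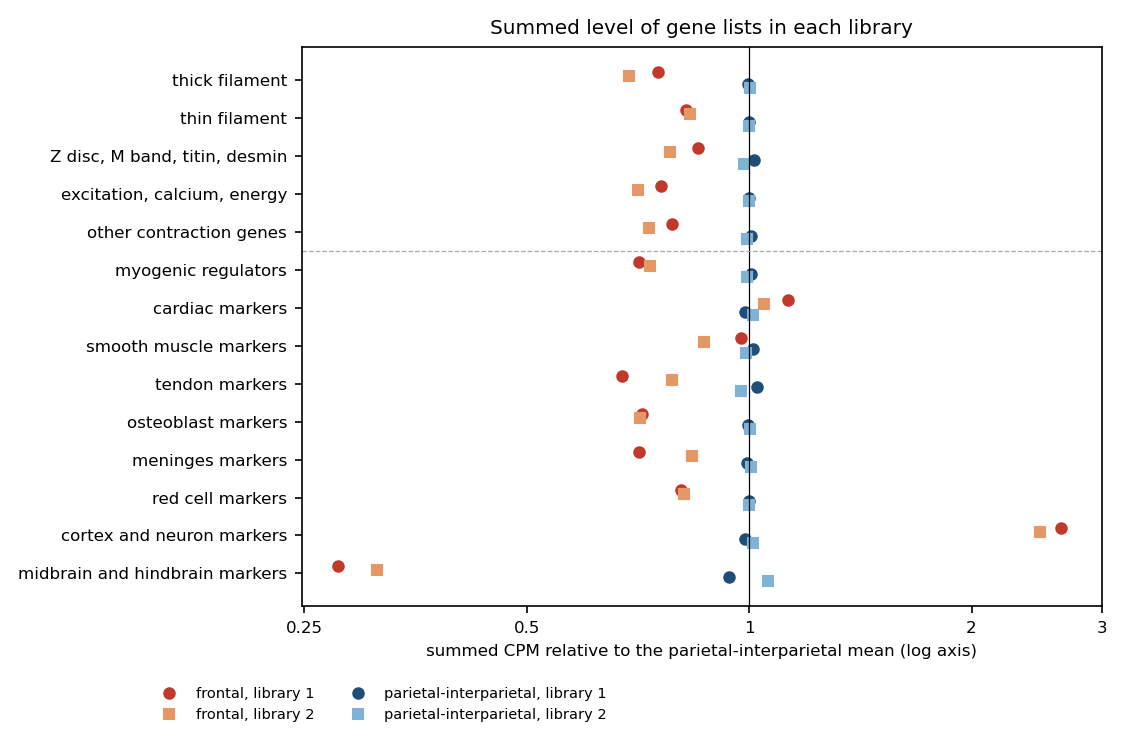
Summed CPM of gene lists in each library relative to the parietal-interparietal mean (log axis); member groups and other contraction genes stand above the dashed line, marker lists below it, and each point is 1 library. Thick filament genes lie at 0.753 and 0.688 in the frontal libraries and myogenic regulators at 0.709 and 0.733. Cardiac markers lie at 1.13 and 1.05 and cortex and neuron markers at 2.64 and 2.48. Most of the cortex and neuron sum in the parietal-interparietal libraries came from Tubb3, which was not called.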

How the data were processed

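The tools named in the submitters' processing notes are Trim Galore 0.6.7, HISAT2 2.1.0 and featureCounts 2.0.1, and the genome build is GRCm38. The values deposited by the authors are raw counts, 1 whole number per Ensembl gene ID and library. The sources used here do not give the annotation release, the strand setting or how read pairs and multiple matches were treated. Even counts made up 68.3% to 74.4% of counts from 1 to 20, so counts were also analysed halved.

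Symbols and positions came from GENCODE M21 (GRCm38), which matched 55227 IDs. Genes were filtered with filterByExpr (minimum count 10), TMM-scaled (trimmed means) and tested two-sided by quasi-likelihood in edgeR 4.0.16 (R 4.3.3). The model held the group alone, leaving 2 residual degrees of freedom, and Benjamini-Hochberg adjustment ran over all 20947 genes tested. CPM values use TMM library sizes. The fold change is frontal over parietal-interparietal, and its SE is the absolute log2 value divided by the square root of F. DESeq2 1.42.0 and 10 other settings were alternatives. The procedure was tested on simulated data whose planted changes were larger than those of most members, so that test says little about the members. Shares within the heavy chains were taken per length of the principal (APPRIS) transcript, and for Myh3 also per length of all annotated exons. Summed CPM and pair ratios were not divided by length, so long or abundant transcripts weigh more in the sums. Pair ratios used a pseudocount of 0.5, and 1 pair is not reported here.

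The members and lists were chosen with earlier results of these data known, so lists carry no test. All members could be named, with values per library where the mean reached 1 CPM, and up to 4 genes of every other list by smallest p. Some further genes of those lists, such as Dmd, Tubb3 and Tnmd, were named after their values were seen. Figures used matplotlib 3.10.9.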

Additional observations from a re-analysis of the deposited data

How the results depend on the processing

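The direction of the members' median held in all 11 alternatives, between −0.57 and −0.40 log2 units; leaving out single libraries gave −0.55 to −0.40, with −0.40 without frontal library 2. Leaving out single libraries changed the number of members called lower to between 8 and 38, against 27 with all libraries, while the share of all genes called lower ran from 1.96% to 17.0%, against 6.44%. It changed the number of other contraction genes to between 5 and 28 lower and 0 to 1 higher, against 16 lower and 1 higher. With the parietal-interparietal pair summed 9 members and 7 other contraction genes were called lower and 0 other contraction genes higher. The summed member CPM ratio of 0.793 was 0.765 with total counts in place of TMM scaling. The labels state no pairing of same-numbered libraries. Deviations of same-numbered libraries correlated at 0.02 over 20947 genes, which cannot show whether such libraries were paired. With the replicate number as a block 29 members and 17 other contraction genes were called lower. In that setting 8.13% of all genes tested were called lower, against 6.44% without the block. Signs turned for Neb (−0.021 with total counts, −0.0027 to 0.055 with single libraries left out), Chrnd (−0.042 with total counts, −0.13 to 0.14 with single libraries left out), Mybph (−0.32 to 0.062) and Actn3 (−0.25 to 0.0025, both with single libraries left out), which were not called with all libraries. Of the pair differences, Tnnc1/Tnnc2 ranged from −2.95 to 0.89 and Myh3/Myh8 from −0.14 to 0.10 with single libraries left out. The cause of these changes was not tested. Of the members under 10 CPM 3 of 15 tested were called, against 24 of 34 at or above it, and the part of depth in this was not tested. With counts halved 28 members were called lower, as were 7.74% of the 18243 genes then tested. Another 2 members had too few counts to test.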

Other observations

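Genes that guide muscle formation and attachment were read beside the contractile list. Pax7 and Pax3, factors of muscle progenitors that neural crest and neural tube also express, were at 7.86 and 8.55 CPM and at 5.95 and 8.06 CPM in frontal libraries, against 15.3 and 18.5 CPM and 14.8 and 12.2 CPM in parietal-interparietal libraries (edgeR adjusted p = 0.00225 and 0.0111). Myod1, the master factor of myoblasts, was at 32.5 and 38.5 CPM in frontal against 55.5 and 57.5 CPM in parietal-interparietal libraries (edgeR adjusted p = 0.00321). Mymk, which encodes the fusion protein myomaker, was at 24.4 and 21.1 CPM in frontal against 35.3 and 35.9 CPM in parietal-interparietal libraries (edgeR adjusted p = 0.00569). All 4 were lower in frontal libraries, and they were named for having the smallest p among the 11 regulators tested. Of these 11 regulators 7 were called lower and 4 were not called. Pax3 lost the call without parietal-interparietal library 1, and Mymk when parietal-interparietal library 2 was left out or the pair was summed.

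Of 6 tendon genes 5 were lower in frontal libraries and 0 higher, where 6.44% of all genes tested were lower and 6.25% higher. The gene not called was Tnmd, at 30.5 and 41.3 CPM in frontal against 37.9 and 35.7 CPM in parietal-interparietal libraries, with overlapping groups. Scx, Mkx and Thbs4 lost the call when either parietal-interparietal library was left out or the pair was summed. The summed level of the 6 tendon genes was 127 and 148 CPM in frontal against 194 and 184 CPM in parietal-interparietal libraries. Kera, which encodes keratocan, was at 5.74 and 7.89 CPM in frontal against 13.5 and 13.4 CPM in parietal-interparietal libraries (edgeR adjusted p = 0.00754). Fmod, which encodes fibromodulin, was at 38.1 and 34.7 CPM in frontal against 56.4 and 54.1 CPM in parietal-interparietal libraries (edgeR adjusted p = 0.00357), and lost the call when parietal-interparietal library 1 was left out or the pair was summed. Of 6 motor neuron markers 1 of 4 tested, Isl1, was lower, at 10.2 and 12.0 CPM in frontal against 35.7 and 35.2 CPM in parietal-interparietal libraries (edgeR adjusted p = 3.99e-05). Isl1 is also made in sensory ganglia, and the motor neuron gene Mnx1 had 0 counts in all 4 libraries.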
